A study of Homo sapiens with 18 samples.

Results

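The genes described here lie on the short arm of chromosome 5 and were chosen because blocks of neighbouring genes there stood higher in a PAX5-expressing Hodgkin lymphoma line than in its parent. The choice names 56 genes, of which 53 have a probe set annotated to a single gene symbol, out of 18417 such genes in all. DAP, PDZD2 and AMACR have none and carry no value. The study asked whether renewed PAX5 expression, with or without chromatin-opening drugs, restores B-cell expression in classical Hodgkin lymphoma, and measured total RNA on 18 arrays in 6 groups of 3. L428 is an established Hodgkin lymphoma cell line, and L428-PAX5 is its derivative in which mifepristone, a steroid antagonist, switches on PAX5, the master regulator of B-cell identity. For 5 days, cells of L428+M and L428-PAX5+M were kept in 0.25 nM mifepristone. Cells of L428+MAT and L428-PAX5+MAT had 2 days of mifepristone before 3 days with 3 µM of the DNA methylation inhibitor 5-aza-2′-deoxycytidine, and trichostatin A, which inhibits histone deacetylases, was present at 640 nM during the final 24 hours. Mifepristone was thus common to the 4 L428 groups, while the Burkitt lymphoma lines Raji and Namalwa were untreated. Cell line, PAX5 and culture medium cannot be told apart in any comparison of L428-PAX5 with L428, because only the medium of L428-PAX5 held 25 mM HEPES and uninduced L428-PAX5 was not analysed here. The labels do not say whether L428-PAX5 is a single clone, nor whether replicates were grown separately, so each p-value reflects only how far these arrays differ, which may be technical.

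Genes on one chromosome arm share no single function, but they share a physical fate: cultured tumour cells can gain or lose an arm or a stretch of it, and the RNA of many genes on it then tends to follow the number of gene copies, with some genes buffered. The short arm of chromosome 5 carries TERT, the catalytic subunit of telomerase, SKP2, which targets the cell-cycle inhibitor p27 for destruction, TRIP13, a mitotic checkpoint ATPase, and DROSHA, which starts microRNA maturation. Gains of this arm are known from many cancers. DNA copy number was not measured in these samples, and its part in the differences below was not tested.

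PAX5 levels followed the labels: PAX5 had mean log2 signals of 12.73 in L428-PAX5+M and 12.79 in L428-PAX5+MAT, with means of 7.49 and 7.17 in L428+M and L428+MAT. On the L428+M arrays PAX5 had 8.64, 7.14 and 6.7, so replicate 1 stood above the others. The 4 Hodgkin-cell markers (TNFRSF8, CCL17, MSC and FSCN1) had group means from 7.98 to 12.64 in the L428 groups and from 5.5 to 7.69 in the Burkitt lines. All 4 had lower means in L428-PAX5+MAT than in L428+MAT, with 7.98 and 10.02 for TNFRSF8, 9.48 and 10.57 for CCL17, 9.35 and 11.57 for MSC and 11.95 and 12.64 for FSCN1. Of the 4 epithelial markers, KRT8 (8.87 and 8.21) and KRT18 (8.91 and 8.04) had higher means there, KRT19 had 6.63 and 6.98, and the defining marker EPCAM was dim at 5.01 and 4.91. The part of these shifts in the differences below was not tested. B-cell markers were dim in the L428 groups, as the highest of the 5 measured means, for CD79B, was 6.76, and T-cell markers did not exceed 6.5 in any group. Across genes, pairs of replicate arrays had correlations from 0.963 to 0.996. The values are relative levels on arrays scaled to one another, so fewer expressing cells and less RNA per cell cannot be told apart.

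The contrast that chose the genes, L428-PAX5+M against L428+M, is given as a description. The median difference of the 53 members was 0.61 on the log2 scale, with quartiles at 0.23 and 0.84, against -0.03 over all genes. In 33 members each L428-PAX5+M array lay above each L428+M array and in 2, SEMA5A and MYO10, each lay below; over all genes these shares were 15.3% and 14.9%. The differences ran from -0.42 ± 0.15 (SE, n = 3 per group) for SEMA5A to 1.18 ± 0.12 for the RNA methyltransferase gene NSUN2. The choice went by blocks and not by a threshold, so it took in genes that did not differ: ANKH stood at 0.01 ± 0.16, SUB1 at -0.02 ± 0.22, ADCY2 at -0.07 ± 0.16, FBXL7 at -0.08 ± 0.21 and EGFLAM at -0.09 ± 0.15. It also left out neighbours that stood higher, such as UGT3A2 (1.55 ± 0.19), ZDHHC11 (1.13 ± 0.20) and TARS1 (0.82 ± 0.13).

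The choosing contrast did not use the drug-treated arrays of both lines, and the comparison of these arrays was tested. Earlier results of these data were known when the members were chosen, so the test is not independent of the choice. In L428-PAX5+MAT against L428+MAT, 24 of the 53 members were higher, 3 were lower and 26 did not pass limma with Benjamini-Hochberg adjustment over all 18417 genes at an adjusted p below 0.05. Over all genes 14.3% were higher and 17.7% lower. At an unadjusted p below 0.05 the same 3 members, SEMA5A, ANKH and GOLPH3, were the only ones lower. The members' median difference was 0.41, with quartiles at 0.06 and 0.89, against 0 over all genes. Among the 42 members whose mean over all arrays lay above the median of all values (6.62), the median was 0.43, while the 11147 genes above that level had a median of -0.07. These arrays come from the same lines as the choosing contrast, and equally numbered arrays with and without drugs deviated together, so they are separate measurements but not separate lines. The lower count was 1 without replicate 2 of L428+MAT or of L428-PAX5+MAT. Of the 27 calls, 22 held whichever single array was left out; those of CTNND2, ANKH, GOLPH3, NPR3 and DNAJC21 did not.

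The members had higher levels on the L428-PAX5 arrays than on all others. For the arrays without drugs this follows largely from the choice, since L428+M, the reference below, also chose the members. Relative to the L428+M mean of each gene, the median over the 53 members was 0.66, 0.51 and 0.46 on the L428-PAX5+M arrays and 0.62, 0.51 and 0.53 on the L428-PAX5+MAT arrays. It was 0.20, 0.03 and 0.10 in L428+MAT, 0.18, 0.06 and 0.09 in Raji and 0.08, 0.02 and 0.10 in Namalwa. All 6 L428-PAX5 arrays thus lay above the other 12, and 3 of those 6, with the L428+M arrays, had chosen the members. The distal block alone was also above 0 in the Burkitt lines, where its medians were 0.28 to 0.41 in Raji and 0.22 to 0.41 in Namalwa, against 0.34 to 0.82 on the L428-PAX5 arrays. The middle block lay at -0.43 to -0.17 in Namalwa. The 649 measured long-arm genes of the same chromosome had medians between -0.13 and -0.05 on the L428-PAX5 arrays.

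**Figure D1:**
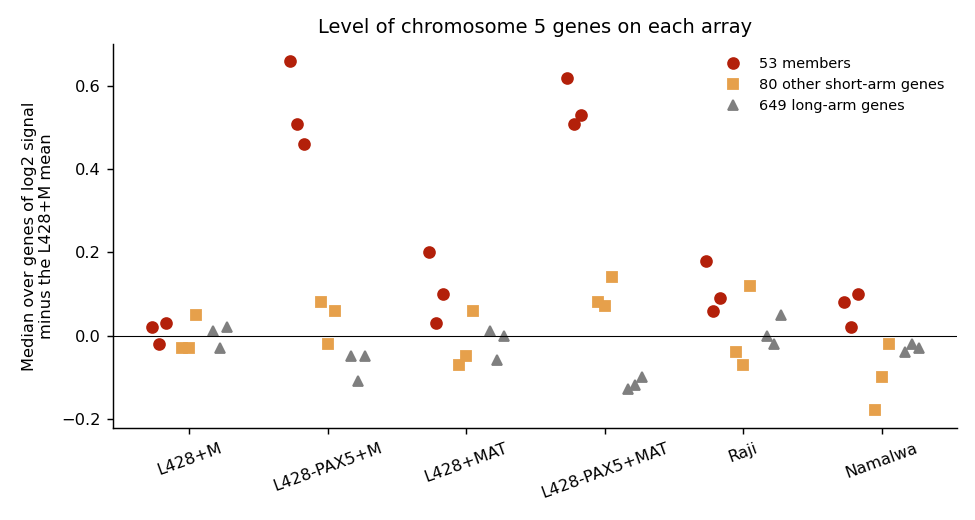
Median over genes of the log2 signal minus each gene's L428+M mean, with 1 point per array (3 per group), for the 53 members, the 80 other short-arm genes and the 649 long-arm genes of chromosome 5. The members lie between 0.46 and 0.66 on the L428-PAX5 arrays and at or below 0.20 elsewhere, and members were chosen on the difference between the L428-PAX5+M and L428+M arrays.

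Along the chromosome the difference was spread over the whole span of the members. In the reference gene table (RefSeq, GRCh38.p14), used here only for the order of genes, the members fall into a distal block from PLEKHG4B to NDUFS6, a middle block from ICE1 to BASP1 and a proximal block from DROSHA to EGFLAM. With drugs, the distal block had 6 of 14 members higher and none lower (median 0.43), the middle block 9 of 19 higher and 2 lower (median 0.41) and the proximal block 9 of 20 higher and 1 lower (median 0.39). Over all genes 14.3% were higher and 17.7% lower with drugs. Without drugs the block medians were 0.61, 0.35 and 0.65. The distal and proximal ends thus had the larger medians without drugs, and the 3 medians lay within 0.04 of each other with drugs.

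The rest of the arm had smaller medians than the members. The 80 other short-arm genes had medians of 0.06 without and 0.13 with drugs. In the drug-treated comparison 17 were higher and 10 lower, against 14.3% and 17.7% of all genes. Of the 80, 47 lie among the members, with medians of 0.05 and 0.17, 9 higher and 2 lower. The other 33 lie between EGFLAM and the centromere, with medians of 0.09 and 0.05, 8 higher and 8 lower. The brighter genes, those with a mean above the median of all values, gave other medians in this last stretch: 0.33 without and -0.16 with drugs over 16 genes, with 2 higher and 4 lower. The 20 brighter genes that lie among the members had medians of -0.01 without and 0.14 with drugs, with 4 higher and 1 lower. Over all 36 brighter other short-arm genes the medians were 0.27 and 0.06, with 6 higher and 5 lower. The long arm had medians of -0.06 and -0.10, with 67 of 649 higher and 165 lower. These other short-arm genes are what the choice of blocks left over, and the drug-treated arrays come from the same lines. The choice can therefore lower their medians under both treatments, and whether the arm moved as one was not tested. Medians of whole chromosomes, over 23 chromosomes, lay between -0.11 and 0.05 without drugs and between -0.16 and 0.09 with drugs.

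**Figure D2:**
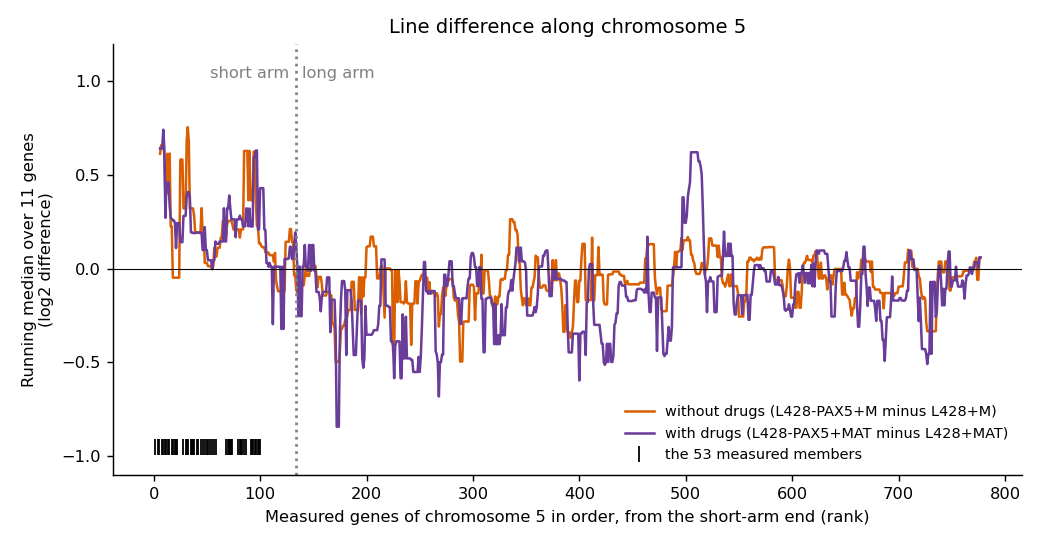
Running median over 11 neighbouring measured genes of the log2 difference between L428-PAX5 and L428, without drugs (orange) and with drugs (purple), against the rank of the gene along chromosome 5; ticks mark the 53 members and the dotted line the border of the arms. Both curves stay near or above 0 over the members and mostly at or below 0 on the long arm, apart from 1 long-arm run with drugs.

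Genes listed under genome upkeep and cell division had 2 of 7 members higher with drugs, CEP72 and SKP2, and none lower. Over all genes these shares were 14.3% and 17.7%. The list also held CLPTM1L, a membrane protein gene, by assignment. The roles were set with earlier results of these data known, and no role was tested as a set. SKP2, the substrate-recognition subunit of the SCF ubiquitin ligase, had log2 signals of 10.41, 10.01 and 10.08 in L428+M against 11.19, 11.18 and 10.64 in L428-PAX5+M. With drugs it had 9.96, 9.66 and 9.61 in L428 against 10.89, 10.75 and 10.69 in L428-PAX5. The lines did not overlap under either treatment, and the drug-treated difference was 2.05-fold (1.04 ± 0.16, adjusted p = 6.48e-05). CEP72, a centrosomal protein, was 0.64 ± 0.13 higher (adjusted p = 6.02e-04), close to its 0.61 ± 0.13 without drugs.

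TRIP13, which remodels HORMA-domain proteins in the spindle checkpoint, stood further apart without drugs than with them. It had 9.8, 9.39 and 9.58 in L428+M against 10.62, 10.67 and 10.32 in L428-PAX5+M, then 9.89, 9.77 and 9.84 in L428+MAT, with 9.92, 10.12 and 10.26 in L428-PAX5+MAT. The drug-treated groups still did not overlap, but the difference of 0.27 ± 0.13 did not pass (adjusted p = 0.143). RAD1, a subunit of the checkpoint clamp that marks damaged DNA, had 9.18, 8.75 and 9.17 in L428+M against 9.82, 9.44 and 9.82 in L428-PAX5+M. With drugs its lines overlapped, with 9.23, 9.02 and 9.15 in L428 against 9.18, 8.98 and 9.45 in L428-PAX5 (0.07 ± 0.16, adjusted p = 0.809).

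TERT did not pass, although its difference with drugs was close to the median of the members. Its log2 signals were 7.43, 7.62 and 6.9 in L428+M, 7.5, 7.79 and 7.34 in L428-PAX5+M, 7.31, 7.3 and 7.74 in L428+MAT, with 7.94, 8.13 and 7.66 in L428-PAX5+MAT. The lines overlapped under both treatments, with a difference of 0.23 ± 0.21 without drugs and 0.46 ± 0.21 with them (adjusted p = 0.11). Its neighbour CLPTM1L, a membrane protein gene of the same cancer susceptibility locus, differed by 0.61 ± 0.25 without and 0.34 ± 0.25 with drugs (adjusted p = 0.35), and its lines overlapped too. NIPBL, which loads the cohesin ring onto DNA, had 9.8, 10.05 and 10.21 in L428+M, 10.32, 10.13 and 10.3 in L428-PAX5+M, 10.08, 10.06 and 10.21 in L428+MAT, with 10.06, 9.41 and 10.17 in L428-PAX5+MAT. Its lines overlapped under both treatments (-0.24 ± 0.16 with drugs, adjusted p = 0.309).

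Genes of transcription, chromatin and RNA had 4 of 7 members higher with drugs, BRD9, ICE1, NSUN2 and DROSHA, and none lower. Over all genes 14.3% were higher and 17.7% lower. BRD9, the bromodomain subunit of the non-canonical BAF chromatin remodeller, showed the largest positive difference of the members. It had 7.79, 7.85 and 8.65 in L428+M, 8.91, 9.48 and 9.14 in L428-PAX5+M, 8.64, 8.6 and 8.83 in L428+MAT, with 10.13, 10.39 and 10.39 in L428-PAX5+MAT. L428-PAX5+MAT lay above all other arrays of the series, 3.06-fold above L428+MAT (1.61 ± 0.20, adjusted p = 4.76e-06).

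ICE1, a scaffold of the complex that helps transcribe small nuclear RNAs, held a similar difference under both treatments. It had 8.68, 8.92 and 9.15 in L428+M against 10.1, 9.91 and 10.26 in L428-PAX5+M, then 8.95, 8.88 and 8.83 in L428+MAT against 9.92, 9.84 and 10.02 in L428-PAX5+MAT (1.04 ± 0.14, adjusted p = 1.02e-05). DROSHA, the nuclease of the microprocessor, had 9.79, 10.05 and 10.42 in L428+M against 10.54, 10.66 and 10.84 in L428-PAX5+M. With drugs it had 9.85, 10.17 and 10.21 in L428 against 10.94, 10.95 and 11.33 in L428-PAX5, a 2.0-fold difference (1.0 ± 0.16, adjusted p = 8.38e-05). NSUN2 kept part of its gap, with 1.18 ± 0.12 without drugs and 0.51 ± 0.12 with them (adjusted p = 0.00201).

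SUB1, a transcriptional coactivator, was among the members nearest to 0. It had 11.43, 10.95 and 11.47 in L428+M, 11.41, 10.98 and 11.38 in L428-PAX5+M, 11.44, 10.8 and 11.44 in L428+MAT, with 10.82, 10.77 and 11.33 in L428-PAX5+MAT, so that the lines overlapped throughout. ZFR, a zinc-finger RNA-binding protein, differed by 0.74 ± 0.17 without drugs and by 0.02 ± 0.17 with them (adjusted p = 0.945). The Mediator subunit MED10 differed by 0.68 ± 0.29 and by 0.14 ± 0.29 (adjusted p = 0.785).

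All 6 genes listed under ribosome assembly, protein folding and nuclear transport had non-overlapping lines without drugs, with differences from 0.63 to 0.97. That is the contrast that chose the members, and over all genes 15.3% had L428-PAX5+M above L428+M without overlap. With drugs 4 of the 6 were higher, against 14.3% of all genes. WDR70, a WD-repeat protein, had 7.71, 7.6 and 7.84 in L428+M, 8.32, 8.3 and 8.41 in L428-PAX5+M, 7.48, 7.48 and 7.86 in L428+MAT, with 8.87, 9.09 and 9.18 in L428-PAX5+MAT. Its difference with drugs was 2.72-fold (1.44 ± 0.14, adjusted p = 4.41e-07). WDR70 was placed in this list by assignment, and its values do not show a part in these processes. ZNF622, which acts in maturation of the large ribosomal subunit, had 7.98, 7.59 and 8.14 in L428+M, 8.78, 8.69 and 8.85 in L428-PAX5+M, 8.17, 7.93 and 7.94 in L428+MAT, with 9.01, 9.6 and 9.18 in L428-PAX5+MAT (1.25 ± 0.16, adjusted p = 9.92e-06). Both genes lay higher in L428-PAX5 under either treatment, and further apart with drugs.

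In the same group, CCT5 and BRIX1 were apart without drugs and overlapped with them. CCT5, a subunit of the chaperonin that folds actin and tubulin, had 11.15, 10.93 and 11.1 in L428+M against 12.12, 11.89 and 12.1 in L428-PAX5+M, then 11.34, 10.87 and 10.81 in L428+MAT, with 11.14, 10.68 and 11.39 in L428-PAX5+MAT. Its difference was 0.97 ± 0.17 without drugs and 0.06 ± 0.17 with them (adjusted p = 0.832). BRIX1, a ribosome biogenesis factor, went from 0.78 ± 0.25 to -0.10 ± 0.25 (adjusted p = 0.821). NUP155, a nuclear pore component, was higher with drugs by 0.63 ± 0.11 (adjusted p = 2.92e-04), and DNAJC21 by 0.46 ± 0.15 (adjusted p = 0.0208).

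Among 9 genes of mitochondria and metabolism, SDHA, MTRR and FASTKD3 were higher with drugs and none was lower (14.3% and 17.7% of all genes). SDHA, the flavoprotein of succinate dehydrogenase, had 10.51, 10.35 and 10.11 in L428+M, 11.61, 11.54 and 11.12 in L428-PAX5+M, 10.6, 10.56 and 10.31 in L428+MAT, with 11.38, 11.18 and 11.14 in L428-PAX5+MAT. The lines did not overlap, and the drug-treated difference was 1.67-fold (0.74 ± 0.15, adjusted p = 8.03e-04). MTRR, which keeps methionine synthase active, and FASTKD3, a mitochondrial RNA-binding protein, were higher by 0.78 ± 0.16 (adjusted p = 6.90e-04) and 0.85 ± 0.19 (adjusted p = 0.00179). NADK2, the mitochondrial NAD kinase, differed by 0.85 ± 0.20 without drugs and by 0.05 ± 0.20 with them (adjusted p = 0.885). The other 5, NDUFS6, MRPL36, SRD5A1, LPCAT1 and CMBL, had drug-treated differences from -0.07 to 0.41, and none passed.

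The 15 genes of trafficking, cytoskeleton and intracellular signalling had 8 members higher with drugs and 1 lower (14.3% and 17.7% of all genes). MYO10, the motor of filopodia, had 6.13, 6.18 and 6.19 in L428+M against 6.06, 5.82 and 5.67 in L428-PAX5+M, so that L428-PAX5 was the lower line without drugs. With drugs it had 7.29, 7.65 and 7.07 in L428 against 8.84, 9.1 and 8.5 in L428-PAX5, a 2.78-fold difference in the other direction (1.48 ± 0.18, adjusted p = 4.23e-06). FBXL7, an F-box protein, had 6.44, 6.48 and 6.57 in L428+M, 6.48, 6.23 and 6.54 in L428-PAX5+M, 6.42, 6.49 and 6.78 in L428+MAT, with 7.67, 8.45 and 7.26 in L428-PAX5+MAT (1.23 ± 0.21, adjusted p = 1.44e-04). Only the L428-PAX5+MAT arrays exceeded 6.78 among all 18. TPPP, a microtubule-bundling protein, had 6.67, 7.14 and 6.87 in L428+M, 7.18, 7.49 and 7.22 in L428-PAX5+M, 6.75, 7.34 and 6.75 in L428+MAT, with 8.25, 8.42 and 7.58 in L428-PAX5+MAT (1.14 ± 0.21, adjusted p = 3.48e-04). Its lines did not overlap under either treatment.

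GOLPH3, a Golgi protein that recruits myosin and glycosyltransferases, was the lower member of the group. It had 10.75, 11.03 and 10.42 in L428+M, 10.8, 11.01 and 11.16 in L428-PAX5+M, 10.65, 10.97 and 10.54 in L428+MAT, with 10.05, 9.87 and 10.47 in L428-PAX5+MAT. Its lines overlapped without drugs and not with them (-0.59 ± 0.18, adjusted p = 0.0139), and this did not pass without replicate 2 of L428+MAT (-0.47) or of L428-PAX5+MAT (-0.46). TRIO, a guanine nucleotide exchange factor, had 9.49, 9.84 and 10.15 in L428+M, 10.16, 10.19 and 10.26 in L428-PAX5+M, 9.88, 10.04 and 9.91 in L428+MAT, with 9.95, 9.53 and 10.3 in L428-PAX5+MAT. With drugs it overlapped (-0.02 ± 0.18, adjusted p = 0.965). The exocyst subunit EXOC3 (0.84 ± 0.14), the phosphatase-like MTMR12 (0.99 ± 0.17), LMBRD2 (0.89 ± 0.16) and the sperm fibrous-sheath protein ROPN1L (0.93 ± 0.20) were higher, with adjusted p from 1.22e-04 for MTMR12 to 0.00133 for ROPN1L. CTNND2 was also higher (0.43 ± 0.14, adjusted p = 0.0217), but not without L428+MAT replicate 1 or L428-PAX5+MAT replicate 2. PLEKHG4B (0.40 ± 0.17), RAI14 (0.57 ± 0.23), the Wnt inhibitor NKD2 (0.13 ± 0.15), OTULIN (-0.08 ± 0.14) and BASP1 (-0.28 ± 0.16) did not pass, with adjusted p from 0.0725 for RAI14 to 0.728 for OTULIN.

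Membrane receptors, transporters and matrix genes had 3 of 9 members higher with drugs and 2 lower (14.3% and 17.7% of all genes). SLC1A3, a glutamate transporter, had 5.38, 5.47 and 5.51 in L428+M, 6.24, 6.01 and 6.33 in L428-PAX5+M, 6.07, 6.01 and 6.05 in L428+MAT, with 7.71, 7.59 and 7.33 in L428-PAX5+MAT. It was 2.84-fold higher in the last group than in L428+MAT (1.5 ± 0.14, adjusted p = 2.42e-07). The potassium-chloride cotransporter SLC12A7 was higher by 0.89 ± 0.19 (adjusted p = 0.00151) and the natriuretic peptide receptor NPR3 by 0.45 ± 0.14 (adjusted p = 0.0208), the latter at signals of 4.68 to 5.51 in these groups, below the median of all values.

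SEMA5A, a semaphorin that guides axons, went against the rest. It had 8.64, 8.9 and 8.88 in L428+M, 8.32, 8.27 and 8.56 in L428-PAX5+M, 9.16, 9.43 and 9.34 in L428+MAT, with 7.03, 6.89 and 7.41 in L428-PAX5+MAT. L428-PAX5 lay below L428 under both treatments, 4.6-fold with drugs (-2.2 ± 0.15, adjusted p = 6.17e-09). ANKH, which exports pyrophosphate and citrate, had 8.45, 8.37 and 7.9 in L428+M, 8.45, 8.2 and 8.08 in L428-PAX5+M, 8.28, 8.13 and 7.93 in L428+MAT, with 7.76, 7.43 and 7.67 in L428-PAX5+MAT. Its lower level with drugs (-0.49 ± 0.16, adjusted p = 0.0199) was not called without L428+MAT replicate 1 (-0.41) or 2 (-0.48) or L428-PAX5+MAT replicate 2 (-0.40).

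The cytokine receptor genes of the arm were dim in L428. IL7R, the alpha chain of the interleukin 7 receptor, had 4.87, 4.96 and 5.4 in L428+M, 5.83, 5.63 and 5.66 in L428-PAX5+M, 5.53, 5.13 and 5.76 in L428+MAT, with 5.72, 5.39 and 5.99 in L428-PAX5+MAT. PRLR, the prolactin receptor, had 4.74, 4.28 and 4.59, then 5.2, 4.93 and 5.52, then 5.12, 4.85 and 5.76, then 5.53, 5.48 and 5.68 in the same groups. Both were apart without drugs and overlapped with drugs, where the differences were 0.23 ± 0.18 (adjusted p = 0.396) and 0.32 ± 0.22 (adjusted p = 0.3); PRLR passed without L428+MAT replicate 3 (0.58). ADCY2, an adenylyl cyclase, lay between 5.4 and 5.94 on the 12 L428 arrays. EGFLAM, a matrix protein of photoreceptor synapses, lay between 5.15 and 5.84, and it passed only without L428-PAX5+MAT replicate 3 (0.38).

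**Figure D3:**
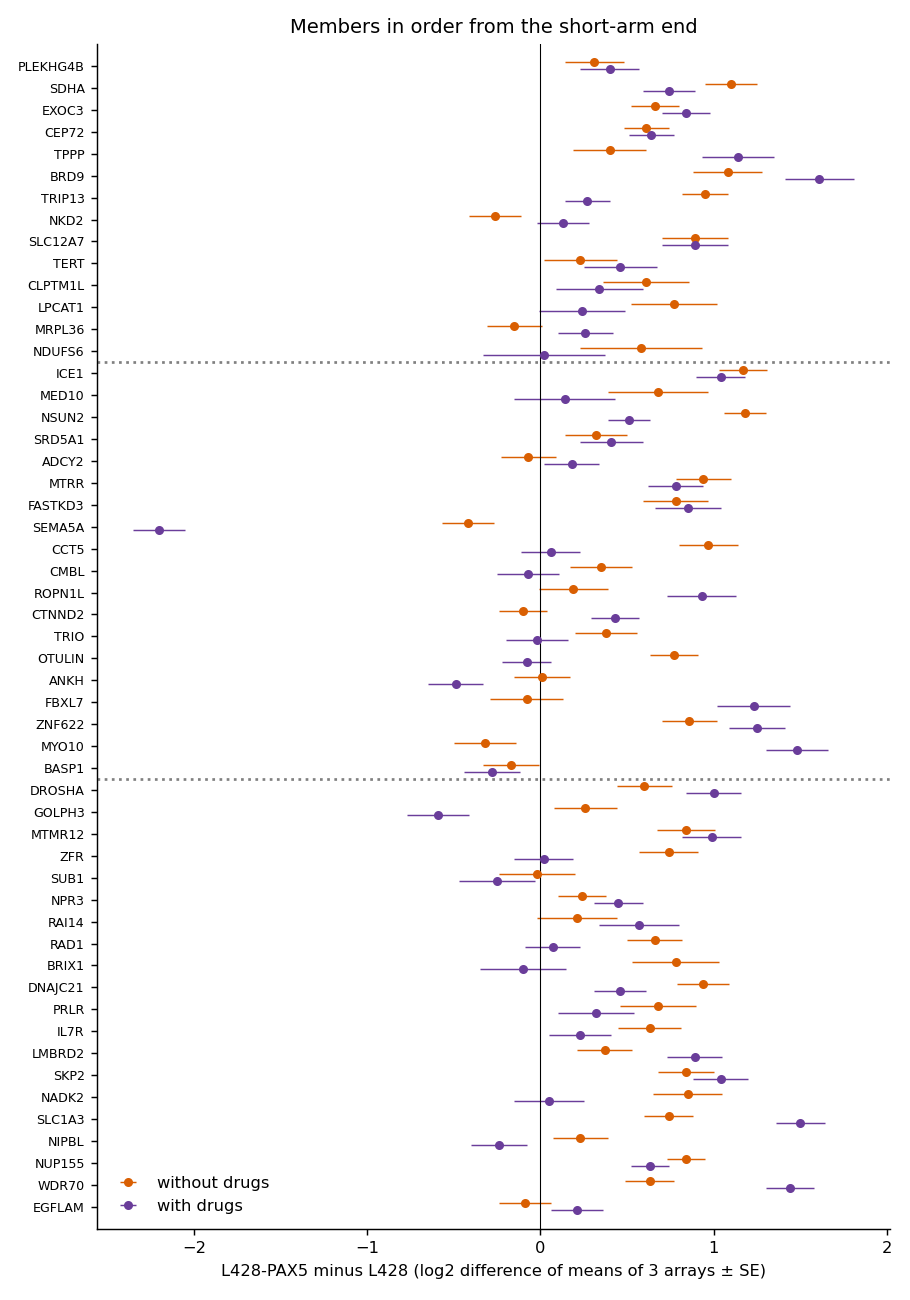
Difference between L428-PAX5 and L428 for each of the 53 members, in order from the end of the short arm, as the log2 difference of means of 3 arrays ± SE, without drugs (orange) and with drugs (purple); dotted lines separate the distal, middle and proximal blocks. SEMA5A lies furthest to the left at -2.2 and BRD9 furthest to the right at 1.61, both with drugs.

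Side by side, the members formed several patterns. In 21 the lines did not overlap and L428-PAX5 was higher both without and with drugs, a share of all genes of 6.2%. The median difference of these 21 was 0.84 without and 0.89 with drugs. Over all genes, 15.3% had L428-PAX5 above L428 with no overlap without drugs, and 17.8% had it above with drugs. Both shares include the 6.2%. With drugs, L428-PAX5 lay below L428 with no overlap in 20.6% of all genes. A further 12, among them CCT5, BRIX1, ZFR, RAD1, NADK2 and OTULIN, were separated only without drugs, with medians of 0.68 and 0.06. Only with drugs were 4 separated, ROPN1L, CTNND2, FBXL7 and MYO10, with medians of -0.09 and 1.08. The shares of all genes separated under a single treatment only are not given, so the 12 and the 4 are descriptions. In the remaining 16, including TERT, L428-PAX5 was not above L428 in this sense under either treatment. Membership in the first, second and last of these patterns rests in part on the contrast that chose the genes.

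**Figure D4:**
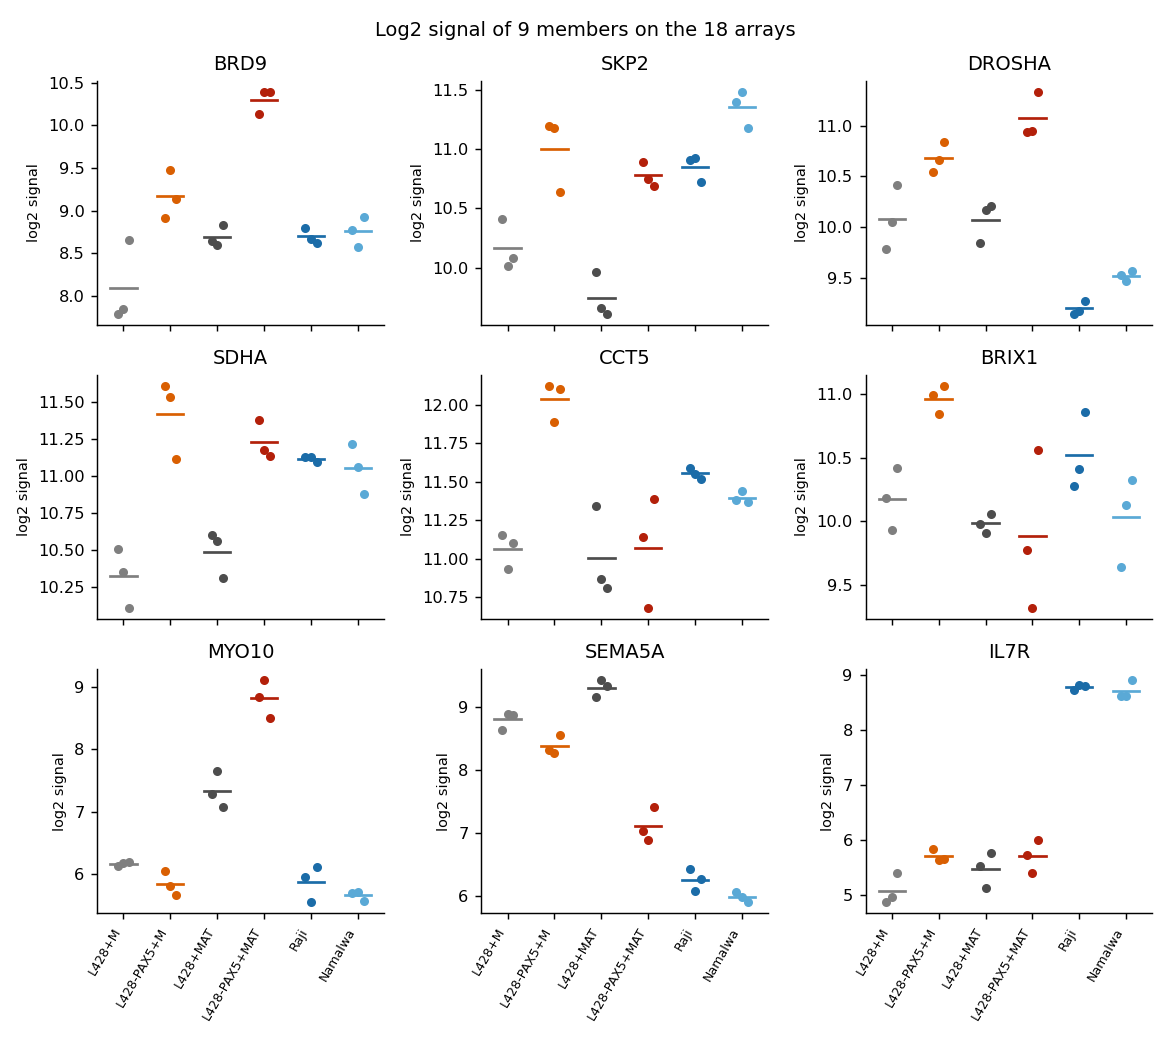
Log2 signal of 9 members on the 18 arrays; points are arrays, bars are means of 3, and the vertical axes differ between panels. BRD9, SKP2, DROSHA and SDHA are higher in L428-PAX5 than in L428 under both treatments, CCT5 and BRIX1 overlap with drugs, and IL7R is highest in Raji and Namalwa.

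The drugs themselves moved few members in the parent. In L428+MAT against L428+M, 5 of 53 were higher, EXOC3, SLC12A7, OTULIN, MYO10 and SLC1A3, and none was lower by limma, against 4.21% and 0.635% of all genes; at an unadjusted p below 0.05, SKP2 alone was lower. The median change was 0.10. MYO10 rose by 1.17 ± 0.18 (adjusted p = 3.25e-04), SLC12A7 by 0.94 ± 0.19 (adjusted p = 0.00571) and OTULIN, a deubiquitinase of linear ubiquitin chains, by 0.58 ± 0.14 (adjusted p = 0.0161). With the replicate number as a block, 10 members were higher and 1 lower. Leaving out replicate 2 of either group gave 3 members higher and leaving out L428+MAT replicate 1 gave 2, and only MYO10 and SLC12A7 were called whichever array was left out.

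In L428-PAX5 the drugs moved members in both directions. L428-PAX5+MAT against L428-PAX5+M had 11 of 53 higher and 12 lower, with a median of 0.04, against 14.2% higher and 19.4% lower over all genes. Those that rose included MYO10 by 2.96 ± 0.18 (adjusted p = 1.48e-09), FBXL7 by 1.38 ± 0.21, SLC1A3 by 1.35 ± 0.14, ROPN1L by 1.33 ± 0.20, BRD9 by 1.12 ± 0.20 and WDR70 by 0.71 ± 0.14. The members that fell included SEMA5A (-1.28 ± 0.15), BRIX1 (-1.08 ± 0.25, adjusted p = 0.00209), CCT5 (-0.96 ± 0.17, adjusted p = 1.77e-04), NADK2 (-0.90 ± 0.20), GOLPH3 (-0.86 ± 0.18) and ANKH (-0.62 ± 0.16). Of the 23 calls, 15 held whichever array was left out, and 7 instead of 12 were lower when either L428-PAX5+M replicate 1 or L428-PAX5+MAT replicate 2 was left out. Both drug comparisons share arrays with the contrast that chose the members, and each shares arrays with the drug-treated comparison of the lines. The difference between the drug responses of the lines was not tested, since it holds the choosing contrast.

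Raji and Namalwa place the members among B-cell tumour lines that express PAX5 themselves. Against L428+M, 17 members were higher in Raji with no overlap and 7 lower (22.3% and 19.8% of all genes), and 15 were higher in Namalwa and 12 lower (23.4% and 20.3%). The median differences from L428+M were 0.16 in Raji and 0.10 in Namalwa. Against L428-PAX5+M, 7 were higher and 27 lower in Raji (24.7% and 22.6% of all genes), and 7 were higher and 26 lower in Namalwa (24.7% and 22.9%), with medians of -0.41 and -0.42. Since the members were chosen for the gap between L428+M and L428-PAX5+M, these values say nothing about which of the groups the Burkitt lines resemble. The choosing contrast did not use the drug-treated groups. Relative to L428+MAT the medians were 0.03 in Raji and -0.04 in Namalwa, and relative to L428-PAX5+MAT they were -0.31 and -0.43. Over all genes these medians lay between 0.06 and 0.11. The drug-treated groups are still the same lines, and the Burkitt lines had no drugs.

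Single members set the Burkitt lines apart from all or most L428 groups. IL7R had 8.73, 8.83 and 8.81 in Raji and 8.63, 8.63 and 8.91 in Namalwa, above every L428 array, where it did not exceed 5.99. TERT had 8.54, 8.51 and 8.07 in Raji and 8.86, 8.4 and 8.3 in Namalwa, overlapping only with L428-PAX5+MAT, whose highest array was 8.13. DROSHA ran the other way, with 9.15, 9.18 and 9.28 in Raji and 9.53, 9.47 and 9.57 in Namalwa, below all 12 L428 arrays.

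Between the Burkitt lines, on arrays with no part in the choice, 7 of 53 members were higher in Raji and 6 lower, against 7.74% and 11.5% of all genes. BASP1, a membrane-bound neuronal growth protein, was 3.51-fold higher in Raji (1.81 ± 0.16, adjusted p = 3.35e-08), the steroid reductase SRD5A1 2.51-fold (1.33 ± 0.18, adjusted p = 2.11e-05) and NSUN2 1.98-fold (0.99 ± 0.12, adjusted p = 2.48e-06). SLC1A3 was 3.84-fold lower (-1.94 ± 0.14, adjusted p = 3.35e-09) and NADK2 2.31-fold lower (-1.21 ± 0.20, adjusted p = 1.25e-04). With the replicate number as a block 13 were higher, and 4 were without Namalwa replicate 1 or Raji replicate 2 or 3. With array medians subtracted 3 were lower.

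Many members work in complexes whose other subunits are encoded on other chromosomes or the long arm, and 69 of 72 listed partners were measured. With drugs, 5 partners were higher in L428-PAX5 than in L428, 24 were lower and 40 did not pass, with a median of -0.27. Over all genes 14.3% were higher and 17.7% lower, and of the 11147 genes above the median of all values 1853 were higher and 2842 lower, with a median of -0.07. Without drugs, 13 partners were higher and 3 lower with a median of 0.14, against 9.72% and 6.55% of all genes. All 6 partners of NIPBL in cohesin and its loader were lower with drugs, from MAU2 (-0.47 ± 0.18) to STAG2 (-1.55 ± 0.29, adjusted p = 3.70e-04). DGCR8, the partner of DROSHA, was also lower (-0.40 ± 0.12, adjusted p = 0.0129), as were CUL1 (-1.25 ± 0.23) and RBX1 (-1.43 ± 0.30), which form the ligase core for SKP2. The other listed partners of SKP2, SKP1 (0.43 ± 0.17, adjusted p = 0.0703) and CKS1B (-0.21 ± 0.23, adjusted p = 0.547), did not pass.

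The partners of IL7R were lower in L428-PAX5+MAT by larger amounts. IL2RG, the common gamma chain, stood at -2.38 ± 0.14 (adjusted p = 1.58e-09), STAT5A at -2.18 ± 0.18, STAT5B at -1.40 ± 0.15 and JAK3 at -1.40 ± 0.18, while JAK1 did not pass (-0.23 ± 0.12, adjusted p = 0.161). The chaperonin partners of CCT5 followed CCT5 more closely. Without drugs 5 of 7 were higher, with CCT6A at 1.12 ± 0.16, and with drugs TCP1 (0.42 ± 0.13) and CCT8 (0.40 ± 0.14) passed. HUS1, which forms the checkpoint clamp with RAD1, was higher under both treatments, by 1.09 ± 0.13 and by 1.07 ± 0.13 (adjusted p = 5.53e-06). RAD9A, the other clamp subunit, stood at 0 without drugs and did not pass with them (0.50 ± 0.24, adjusted p = 0.132). The clamp loader RAD17 was higher without drugs (0.79 ± 0.24) and did not pass with them (-0.35 ± 0.24, adjusted p = 0.31). Among the 7 exocyst partners of EXOC3, EXOC8 was higher with drugs (1.23 ± 0.21, adjusted p = 1.43e-04), the largest positive difference of the partners, EXOC5 (-0.99 ± 0.27) and EXOC6 (-0.69 ± 0.18) were lower and 4 did not pass. For SDHA, SDHC was lower with drugs (-0.81 ± 0.18, adjusted p = 0.00199) and SDHD did not pass (0.08 ± 0.34, adjusted p = 0.907).

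**Figure D5:**
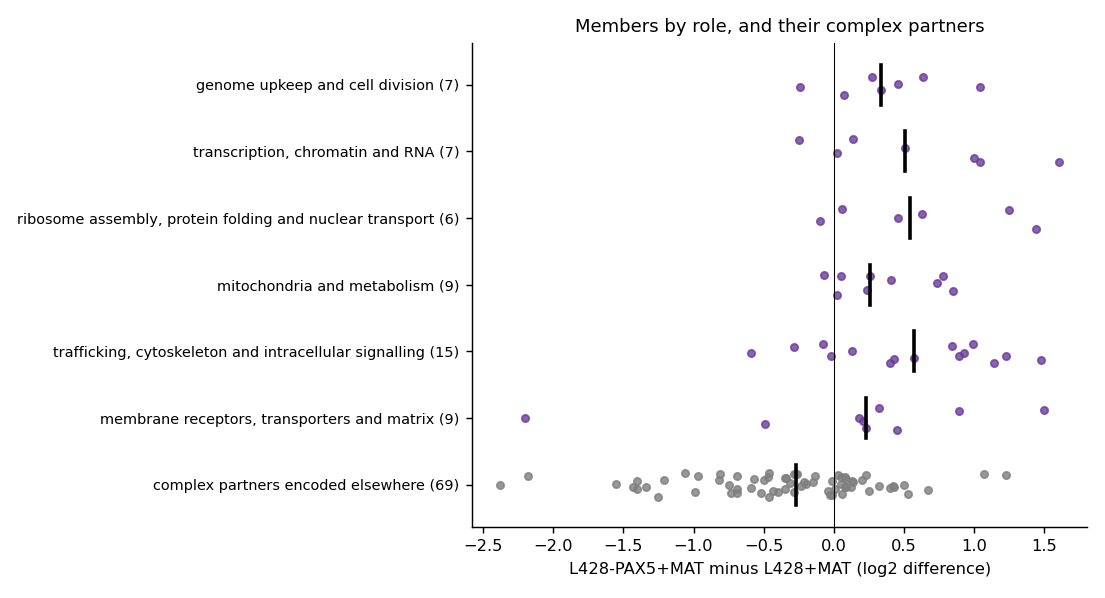
Log2 difference between L428-PAX5+MAT and L428+MAT for the members by role (purple, number of genes in brackets) and for 69 complex partners encoded elsewhere (grey); points are genes, the black bars are medians and the vertical scatter carries no meaning. The medians of the member groups lie between 0.23 and 0.57 and that of the partners at -0.27.

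The promoters of the members were read for short motifs they might share. The reference (RefSeq, GRCh38.p14) holds promoters for 49 of the 53 members, and the 250 bases before each start were searched on both strands. The PAX5 core GCGTGAC was present in 1 member, ZFR (2.04%), against 2.87% of 14239 promoters of measured genes. The E-box CACGTG was present in 7 members (14.3%, against 7.86%), SLC12A7, TERT, MRPL36, CTNND2, OTULIN, RAI14 and NADK2. The ETS core CCGGAAG was present in 7 (14.3%, against 12.1%), EXOC3, TRIP13, ZNF622, GOLPH3, RAD1, BRIX1 and NIPBL. No member held more than 1 of the 3 motifs, and a match is a description only. The median number of CG pairs was 27 per window in the members and 18 over all promoters of measured genes.

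Shown are ZFR (chr5:32444741-32444990, minus strand), the member with the PAX5 core, SLC12A7 (chr5:1112064-1112313, minus strand), which had an E-box and was higher in L428-PAX5 under both treatments, and SKP2 (chr5:36151861-36152110, plus strand), which was higher under both and held none of the 3 motifs. Each is written 5′ to 3′ up to the start, with the motif in capitals, which in ZFR is the PAX5 core on the opposite strand.
ZFR: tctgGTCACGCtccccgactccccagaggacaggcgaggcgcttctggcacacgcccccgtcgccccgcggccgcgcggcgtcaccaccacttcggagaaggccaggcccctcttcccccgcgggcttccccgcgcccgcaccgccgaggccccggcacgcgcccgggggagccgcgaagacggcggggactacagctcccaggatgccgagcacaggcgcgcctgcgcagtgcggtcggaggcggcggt
SLC12A7: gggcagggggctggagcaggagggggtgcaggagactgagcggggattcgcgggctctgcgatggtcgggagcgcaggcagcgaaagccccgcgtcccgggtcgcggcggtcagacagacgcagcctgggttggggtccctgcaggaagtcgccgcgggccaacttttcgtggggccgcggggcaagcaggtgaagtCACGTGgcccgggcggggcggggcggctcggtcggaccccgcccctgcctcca
SKP2: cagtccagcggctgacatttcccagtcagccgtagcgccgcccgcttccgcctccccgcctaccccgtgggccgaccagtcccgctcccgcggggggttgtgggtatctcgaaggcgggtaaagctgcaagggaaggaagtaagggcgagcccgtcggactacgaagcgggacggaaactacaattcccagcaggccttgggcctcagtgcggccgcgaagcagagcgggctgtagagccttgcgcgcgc
ZFR was among the members separated without drugs only, and SKP2 and SLC12A7 were shown because they were higher under both treatments. Of the other members with an E-box, OTULIN and NADK2 were separated without drugs only and CTNND2 with drugs only. In TERT, MRPL36 and RAI14 L428-PAX5 was not above L428 without overlap under either treatment. A link between motif and treatment was not tested.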

How the data were processed

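RNA of human lymphoma lines was hybridised in 18 samples to Affymetrix whole-transcript arrays. The authors deposited log2 signals for each probe set, made with RMA and Partek per the submitters' processing notes, which state no version. RMA background correction compresses dim signals, so their changes are understated. There are 33297 probe sets, all complete, and array medians lie between 6.52 and 6.70.

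Of these, 19460 carry 1 gene symbol in the platform annotation, 1754 carry several and 12083 are unlisted and unnamed here. The brightest probe set on average was kept for the 769 genes with more than 1. Identifiers of 19426 probe sets matched the RefSeq table (GRCh38.p14), which changed no symbol. Gene positions served only for gene order, as the array's build is not stated in the sources used. The border between the arms was set in that gene order.

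Changes were estimated with limma 3.58.1 in R 4.3.3 (lmFit and eBayes, 1 mean per group over 18 arrays, 12 residual and 6.1 prior degrees of freedom), two-sided, Benjamini-Hochberg over 18417 genes, and checked on simulated data. Tables and plots used Python 3.11.15, pandas 2.3.3, numpy 2.4.6 and matplotlib 3.10.9. The members, roles, partner lists and motifs were chosen with earlier results of these data known. Named genes are the 10 largest rises and all passing falls with drugs, the 5 members nearest 0 without drugs, and 12 fixed members, with values per array; other members are given by range, count or difference, and CCT5 by array was chosen after its values were seen. For L428-PAX5+MAT the titles read L425-PAX5, and the cell line field was followed.

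Equally numbered arrays deviated together in each of the 5 comparisons, with correlations of deviations from group means from 0.27 to 0.65, so the numbers pair the samples; the pairing comes from the replicate numbers of the titles. The fit without the block is reported. Alternatives were a replicate block, only the 2 groups of a comparison, array medians subtracted, the mean of probe sets, dim genes left out (no group mean above 6.62), an intensity trend and each array left out. With 3 arrays per group, precision is low.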

Additional observations from a re-analysis of the deposited data

Results flagged for a closer look

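In 3 of the 53 members, L428-PAX5 differed from L428 in one direction in each numbered pair without drugs and in the other in each pair with drugs. The difference between the treatments was not tested, and how often this pattern occurs over all genes was not counted. Some of the differences were as small as -0.01, and those without drugs belong to the contrast that chose the members. MYO10 was lower in L428-PAX5 by pair differences of -0.07, -0.36 and -0.52 without drugs and higher by 1.54, 1.46 and 1.43 with them (mean 1.48). CTNND2 had -0.11, -0.01 and -0.19, then 0.50, 0.60 and 0.18 (mean 0.43). NIPBL had 0.52, 0.08 and 0.09, then -0.03, -0.65 and -0.05 (mean -0.24).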

How the results depend on the processing

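In L428-PAX5+MAT against L428+MAT, the count of members higher was 24 and lay between 21 and 27 under all 12 alternatives, and the median of 0.41 lay between 0.36 and 0.49 with arrays left out. The lower count of 3 ranged from 1 to 3 with arrays left out and was 1 with only the 2 groups in the fit, where fewer arrays estimate the spread. TRIO changed sign when arrays were left out (-0.20 to 0.18), as did RAD1 (-0.05 to 0.18), and neither passed. Without drugs the median of 0.61 was 0.59 with array medians subtracted, 0.64 with dim genes left out and 0.57 to 0.62 with arrays left out.

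For the drugs in L428, 5 members higher became 10, with 1 lower, under the replicate block and 2 with only the 2 groups, and 2 to 6 with arrays left out. The median of 0.10 was 0.06 with array medians subtracted and 0.06 to 0.13 with arrays left out. For the drugs in L428-PAX5, the lower count of 12 was 6 with only the 2 groups and 7 to 12 with arrays left out, and the median of 0.04 was -0.07 with dim genes left out and -0.04 to 0.09 with arrays left out. Between the Burkitt lines, 7 members higher became 13 under the replicate block and 4 to 5 with arrays left out, the lower count of 6 was 3 with array medians subtracted, and the median of 0.07 was 0.17 with array medians subtracted and 0.04 to 0.12 with arrays left out. The pairing by replicate block moved no other count by over 1.5 times and lost none of the 27 calls between the drug-treated lines, while SRD5A1 and RAI14 passed under it. The cause of these shifts was not tested. Members near the floor of the arrays, such as NPR3, PRLR, IL7R and RAI14, limit what small differences can show.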

Other observations

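Short-arm genes between EGFLAM and the centromere, which are not members, differed between the drug-treated lines in both directions. LIFR, the leukaemia inhibitory factor receptor, was higher in L428-PAX5+MAT than in L428+MAT by 1.93 ± 0.15 (log2, limma adjusted p = 2.94e-08) and the selenium carrier SELENOP by 2.12 ± 0.25 (adjusted p = 3.53e-06), while NNT, the mitochondrial transhydrogenase, was lower (-1.41 ± 0.21, adjusted p = 3.91e-05). Without drugs these genes stood at -0.08 ± 0.15, 0.43 ± 0.25 and -0.39 ± 0.21. They were chosen after their values were seen.

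Among the 375 long-arm genes whose mean lay above the median of all values, 38 were higher and 145 lower in L428-PAX5+MAT than in L428+MAT, with a median of -0.30, against a median of -0.07 over all genes above that level.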
